A study of Mus musculus with 12 samples.

Results

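The genes described are Ifng, which encodes interferon gamma, and 8 regulators of type 1 effector T cells: Tbx21, Eomes, Stat4, Il12rb2, Hlx, Runx3, Zeb2 and Prdm1. They are 9 of 18193 genes on the array, found as the probe sets that name exactly 1 of these symbols, and each gene was read from its probe set with the highest mean over the 12 arrays. In all, 15 of 45037 probe sets belonged to them, 5 of these to Zeb2 and 2 each to Eomes and Runx3. Lymph node cells came from P14-TCR mice, whose transgenic T cell receptor recognises the viral peptide gp33-41 on MHC class I, and were either wild type or PKD2 null. PKD2 (protein kinase D2, the product of Prkd2) is a serine/threonine kinase activated downstream of the antigen receptor. Cells of each of 3 wild-type and 3 null mice were cultured for 4 h without peptide or with peptide at 62.5 ng/ml, so that 4 groups of 3 Affymetrix arrays were compared and each mouse gave 1 array of each condition. All groups carried the P14 receptor. The labels name whole lymph node suspensions with no sort, and give neither the ages of the mice nor a cell type to which the loss of PKD2 was limited.

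Interferon gamma is the signature cytokine of type 1 immunity, made by activated CD8 T cells, Th1 cells and natural killer (NK) cells, and it acts on macrophages and other cells. T-bet, the product of Tbx21, and the related T-box factor Eomesodermin drive its transcription in CD8 T cells, together with the Runt factor RUNX3. IL-12, sensed by a receptor that includes the Il12rb2 chain, acts through STAT4 on the same genes. ZEB2 and BLIMP1, the product of Prdm1, act later, in terminal effector differentiation.

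Signals are log2 values, which place a gene relative to itself on other arrays but not relative to another gene. Changes were tested with limma over all 45037 probe sets, and a gene was called at an adjusted p (Benjamini and Hochberg) under 0.05. Each interval is a 95% interval of the fit. The 4 groups of 3 arrays share the same estimate of the spread of a probe set. An SE or interval therefore does not measure the spread within a single genotype. Prkd2 lay between 8.16 and 10.34 on the wild-type arrays and between 5.36 and 6.33 on the null arrays. The mean log2 signal of 6 CD8 T cell markers lay between 10.63 and 11.20 over the arrays, and that of B cell markers at 8.01 to 9.06 over 7 genes in wild-type cells and 8.69 to 10.04 in null cells. These are bulk cells, so fewer cells of a type and less RNA per cell cannot be told apart. The arrays of null mouse 2 stood apart: without peptide this mouse had the highest B cell (10.04), plasma cell (9.33) and myeloid (7.32) levels of all 6 mice and the lowest CD8 T cell level (10.65). It gave the highest value of the null group for 6 of the 9 genes without peptide and for 8 of 9 with it. Wild-type mouse 1 was likewise highest in its group for 6 of 9 genes without and 5 of 9 with peptide. Results that turn on null mouse 2 are also given without it, and this mouse was picked with the values of these genes seen. The difference between 3′ and 5′ actin probe sets, a sign of RNA quality, lay between 0.18 and 0.36 on all arrays.

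The promoters of Ifng and Tbx21 are shown because these genes had the largest rises, and 1 window of Zeb2 because it was the only other gene called up in wild-type cells; of its 4 start windows the printed one was picked for its AP-1 letters. The windows run 5′ to 3′ on the strand of the gene, from 250 bases before to 50 after the start, from RefSeq annotation of build GRCm38.p6. The Ifng window is chr10:118440796-118441095 (plus strand), the Tbx21 window chr11:97115282-97115581 (minus strand) and the Zeb2 window chr2:45110228-45110527 (minus strand). Capitals mark the letters of AP-1 (TGANTCA), NFAT (GGAAA, or its reverse complement) and STAT (TTCNNNGAA).
Ifng: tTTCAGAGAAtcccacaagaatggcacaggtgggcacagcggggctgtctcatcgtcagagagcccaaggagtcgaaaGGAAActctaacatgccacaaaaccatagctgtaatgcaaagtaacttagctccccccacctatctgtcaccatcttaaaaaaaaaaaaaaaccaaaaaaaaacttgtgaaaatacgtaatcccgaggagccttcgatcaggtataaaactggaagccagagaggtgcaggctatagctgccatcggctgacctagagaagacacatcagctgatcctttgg
Tbx21: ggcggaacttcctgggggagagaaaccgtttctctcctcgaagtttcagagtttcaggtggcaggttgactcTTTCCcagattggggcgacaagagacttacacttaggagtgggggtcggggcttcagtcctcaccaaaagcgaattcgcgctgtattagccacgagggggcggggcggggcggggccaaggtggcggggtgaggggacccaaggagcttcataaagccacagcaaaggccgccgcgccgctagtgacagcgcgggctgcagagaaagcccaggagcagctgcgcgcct
Zeb2: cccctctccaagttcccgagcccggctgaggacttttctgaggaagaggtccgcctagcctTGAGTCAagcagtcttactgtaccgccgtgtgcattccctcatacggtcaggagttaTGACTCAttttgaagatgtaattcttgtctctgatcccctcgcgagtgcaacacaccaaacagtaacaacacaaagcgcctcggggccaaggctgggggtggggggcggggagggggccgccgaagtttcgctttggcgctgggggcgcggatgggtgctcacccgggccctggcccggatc
In the Ifng window the STAT letters begin 249 bases and the NFAT letters 172 bases before the start. In the Tbx21 window the NFAT letters, on the opposite strand, lie 178 bases before it. In the Zeb2 window AP-1 letters begin 189 and 132 bases before the start. These are matches of letters and not measured sites. On both strands, NFAT letters occurred in 61.3% of 32851 windows of 300 bases, AP-1 letters in 7.81% and STAT letters in 8.30%. The 9 genes had 14 windows, at least 1 each. AP-1 letters were in 2 of the 14 windows (of Zeb2 and Prdm1), STAT letters in 4 windows of 3 genes and NFAT letters in 9 windows of 6 genes. The T-box letters GGTGTGA (3.98% of windows) were in no window of the 9 genes, and the RUNX letters TGTGGTT (5.27%) were in a window of Runx3 itself. No 2 of the 5 motifs overlapped in the printed windows.

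Peptide changed 4 of the 9 genes in wild-type cells and 3 in null cells. In wild type Ifng, Tbx21 and Zeb2 rose and Stat4 fell, while 29% of all probe sets were called (12.8% up and 16.2% down). In null cells Ifng and Tbx21 rose and Stat4 fell, against 24.8% of all probe sets (11% up and 13.8% down). The arrays with and without peptide did not overlap for 5 genes that were higher (18.8% of all probe sets) and 1 lower (21.1%) in wild type, and for 2 higher (16.3%) and 1 lower (19%) in null cells. With the 2 arrays of each mouse treated as a pair, 5 genes were called in each genotype, since Eomes joined in both and Zeb2 in null cells. In that fit 14593 of 45037 probe sets were called in wild type (6331 up and 8262 down). The count for null cells is not given, so their 5 genes have no share to be read against. The median change of the 9 genes was 0.42 in wild type and -0.10 in null cells, and that of all genes was 0.01 and -0.02. Neither without peptide nor with it was any of the 9 genes called between the genotypes (limma; 0.0377% and 1.18% of all probe sets were called, the latter as 0.799% up and 0.38% down). At an unadjusted p under 0.05 limma picked 2 of the 9 genes in each condition, and 8.91% of all probe sets without and 15.6% with peptide. The difference of the peptide effects called 0 of the 9 and 0.00222% of all probe sets in limma, with 2 of the 9 genes at an unadjusted p under 0.05 and 7.13% of all probe sets. With each mouse as a pair, 1 of the 9 genes, Zeb2, was called for that difference. The count over all probe sets in that fit is given in the last section.

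**Figure D1:**
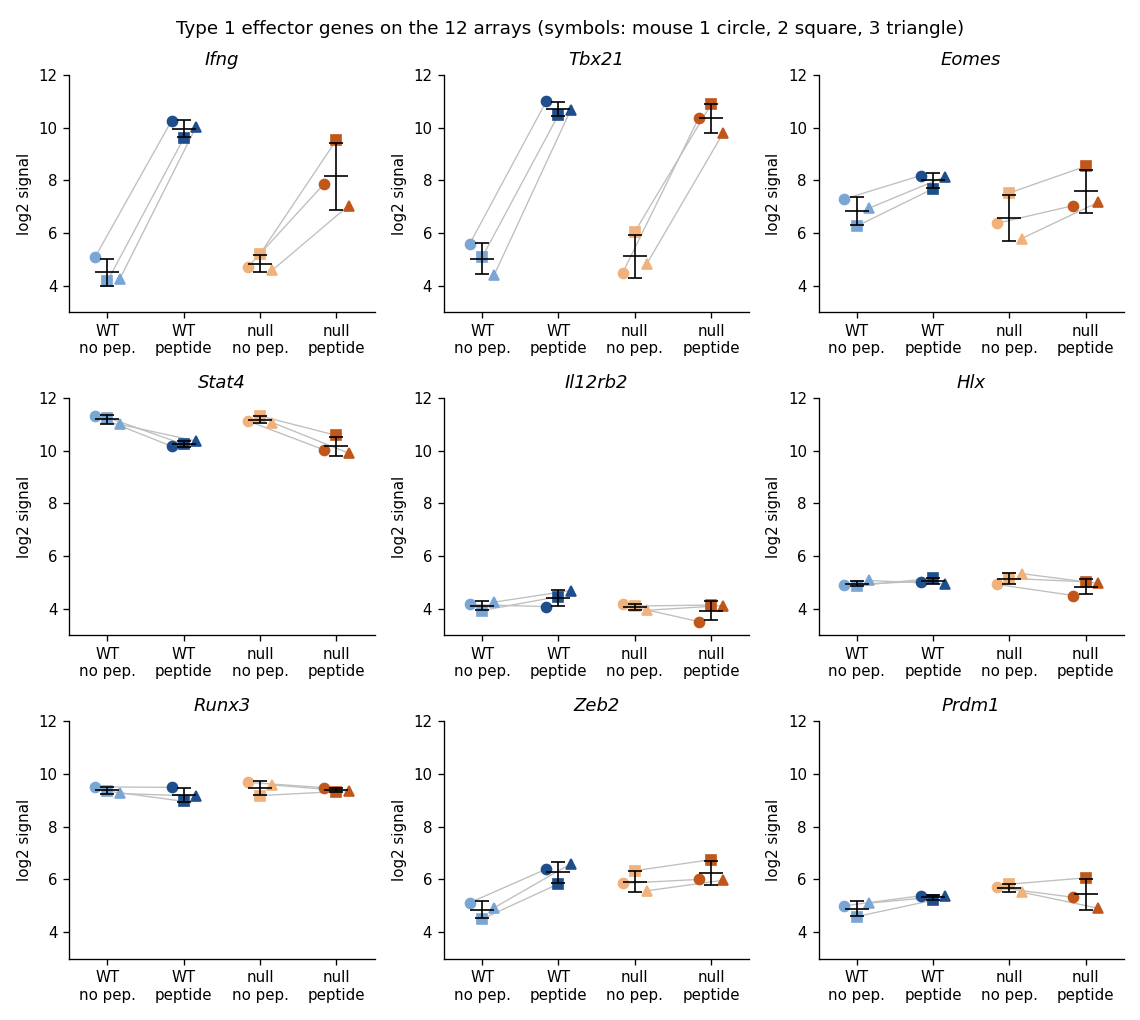
Log2 signal (vertical axis) of the 9 genes in wild-type (WT, blue) and PKD2-null (orange) cells without (no pep., pale) and with peptide (dark). Each symbol is 1 array, grey lines join the arrays of a mouse, and black bars give mean and SD of 3 arrays; Ifng and Tbx21 lie between 4.18 and 6.04 without peptide and between 7.04 and 10.99 with it, and the 3 null arrays of Ifng with peptide spread from 7.04 to 9.53.

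Ifng was the gene whose level with peptide differed most between the genotypes among the 9. In wild-type mice 1, 2 and 3 its signal was 5.10, 4.18 and 4.25 without peptide and 10.26, 9.60 and 10.02 with it. In null mice 1, 2 and 3 it was 4.71, 5.21 and 4.59 without and 7.87, 9.53 and 7.04 with peptide. Without peptide the genotypes overlapped, and with peptide each null array lay below each wild-type array, mouse 2 by the least. The means without peptide, 4.51 in wild type and 4.84 in null cells, lay close to the array medians of 4.67 to 4.72. At so low a signal the overlap does not show equal levels, and the folds are taken from that signal. The rise was 5.45 (SE 0.483, adjusted p = 2.1e-06), or 43.8-fold, in wild type and 3.31 (SE 0.483, adjusted p = 0.00019), or 9.94-fold, in null cells. Among 18193 genes this was the rise of rank 10 in wild type and of rank 28 without PKD2.

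With peptide the mean of Ifng was 9.96 ± 0.336 (SD, n = 3) in wild type and 8.15 ± 1.27 in null cells, a difference of -1.81 (interval -2.86 to -0.76). This did not pass the test (adjusted p = 0.10), while values of 3 null and 3 wild-type arrays that lay apart in this direction were found in 11% of all probe sets. Without null mouse 2 the difference was -2.50 and passed in limma (adjusted p = 0.0040), in a fit that called 0.806% of all probe sets lower. That mouse had the highest Ifng of the stimulated null mice, so leaving it out lowers the null mean. Over the fits that left out 1 mouse the difference ran from -2.50 to -1.26 and the adjusted p from 0.0040 to 0.39. Without peptide the difference was 0.33 (interval -0.72 to 1.38, adjusted p = 0.90). The 4 levels thus ran from unstimulated wild type and unstimulated null, which did not differ beyond their spread, to stimulated null and stimulated wild type, whose difference did not pass with all mice.

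The rise within each mouse shows the same gene from the side of the response. Ifng rose by 5.16, 5.42 and 5.77 in wild-type mice 1, 2 and 3 and by 3.16, 4.33 and 2.45 in null mice 1, 2 and 3. The 3 null rises were all smaller than the 3 wild-type rises (exact permutation test, two-sided p = 0.1, the smallest that 3 against 3 mice can give), as was seen for 3 of the 9 genes (Ifng, Zeb2 and Prdm1). The 3 null changes all lay below the 3 wild-type changes for 9% of all probe sets. The difference of the rises was -2.14 (SE 0.682, interval -3.62 to -0.65), the lowest of the 18193 genes, and did not pass after adjustment (adjusted p = 0.55 in limma). With each mouse as a pair the adjusted p was 0.12, and over the fits that left out 1 mouse the difference stayed between -2.65 and -1.71 with adjusted p from 0.13 to 0.98.

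**Figure D2:**
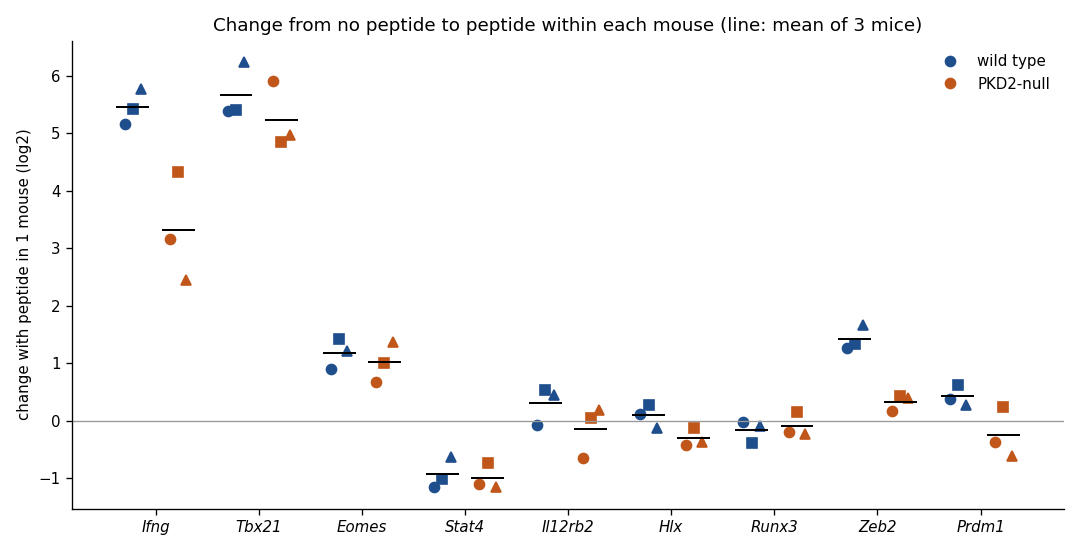
Change in log2 signal from no peptide to peptide within each mouse (vertical axis) for the 9 genes (horizontal axis), wild type in blue and PKD2-null in orange, with mouse 1 as circle, 2 as square and 3 as triangle; mouse numbers do not match across genotypes. Lines are means of 3 mice; the 2 genotypes lie apart for Ifng, Zeb2 and Prdm1 and mix for the other 6 genes.

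NK cells are another source of Ifng in a lymph node, and their markers are given beside it. Of 9 NK markers fixed for the comparison 6 could be read from a probe set of 1 gene. Their mean level was 6.82 to 6.89 in unstimulated and 6.69 to 6.76 in stimulated wild-type cells, and 6.42 to 6.76 and 6.22 to 6.74 in null cells. This mean joins opposite changes with peptide. Nkg7 rose by 1.56 in wild type and 1.47 in null cells, while Klrd1 changed by -1.20 and -1.12. Of the 6 markers 2 lay below the median signal. Klrd1, a receptor chain that CD8 T cells also carry, was the 1 marker of the 6 called by limma between the genotypes with peptide. Of all probe sets 1.18% were called there. Null cells were at -0.92 relative to wild type with peptide (SE 0.17, adjusted p = 0.027) and at -1.0 without it (adjusted p = 0.063). The part of these cells in the Ifng values was not tested.

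Tbx21 rose strongly in both genotypes. Its signal was 5.60, 5.08 and 4.42 in wild-type mice 1, 2 and 3 without peptide and 10.99, 10.48 and 10.66 with it. In the null mice it was 4.48, 6.04 and 4.84 without and 10.37, 10.88 and 9.80 with peptide. All 6 mice rose, by 4.84 to 6.24, and the genotypes overlapped in both conditions. The means without peptide, 5.03 in wild type and 5.12 in null cells, lay close to the array medians of 4.67 to 4.72. The folds are taken from that low signal, and the overlap without peptide does not show equal levels. The rise was 5.67 (SE 0.393, adjusted p = 2.7e-07) or 51.1-fold in wild type and 5.23 (SE 0.393, adjusted p = 9.3e-07) or 37.6-fold in null cells, and Tbx21 ranked 8 of 18193 genes in both. The difference of the rises was -0.44 (interval -1.65 to 0.77, adjusted p = 0.92). For Ifng it was -2.14, with an interval of -3.62 to -0.65 that overlaps that of Tbx21. Whether the 2 genes differ in this was not tested. With peptide null cells differed from wild type by -0.36 (interval -1.21 to 0.49, adjusted p = 0.71), and without it by 0.08 (-0.77 to 0.94). The overlap with peptide came from null mouse 2, since the other null arrays lay below the 3 wild-type arrays. Without this mouse the difference was -0.62 (adjusted p = 0.32), and over the fits without 1 mouse it ran from -0.62 to -0.08.

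Eomes, the T-box relative of T-bet, was higher with peptide in all 6 mice but varied widely between mice. Wild-type mice 1, 2 and 3 had 7.29, 6.26 and 6.94 without and 8.18, 7.68 and 8.14 with peptide. Null mice 1, 2 and 3 had 6.37, 7.52 and 5.79 without and 7.04, 8.53 and 7.16 with peptide. Null mouse 2 was the highest of all 6 in both conditions, and the null groups without and with peptide overlapped because of it. The difference with peptide was 1.17 (SE 0.449, adjusted p = 0.072) in wild type and 1.02 (SE 0.449, adjusted p = 0.14) in null cells. Within mice the spread was smaller, with changes of 0.67 to 1.42. With each mouse as a pair Eomes rose in both genotypes (adjusted p = 0.00011 in wild type and 0.00037 in null cells). Without null mouse 2 it passed in both as well (adjusted p = 0.0032 and 0.031). The second probe set of the gene gave 1.14 and 0.97. Between genotypes the effects differed by -0.16 (interval -1.54 to 1.22), and null cells with peptide differed from wild type by -0.43 (interval -1.40 to 0.55), both short of a call (adjusted p = 0.98 and 0.70). Without null mouse 2, the other null arrays with peptide lay below the 3 wild-type arrays, and the difference was -0.90 (adjusted p = 0.12); over the fits without 1 mouse it ran from -0.90 to -0.16.

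Zeb2 encodes a zinc finger repressor that acts with T-bet in effector CD8 T cells. Its signal was 5.12, 4.50 and 4.93 in wild-type mice 1, 2 and 3 without peptide and 6.39, 5.83 and 6.59 with it. In null mice 1, 2 and 3 it was 5.85, 6.33 and 5.57 without and 6.00, 6.75 and 5.97 with peptide. The 3 unstimulated null arrays lay above the 3 unstimulated wild-type arrays, and with peptide the genotypes overlapped. Zeb2 rose by 1.42 (SE 0.264, adjusted p = 0.0010), or 2.67-fold, in wild type, while null cells gave 0.33 (SE 0.264, interval -0.24 to 0.90, adjusted p = 0.46). Within mice the changes were 1.27, 1.33 and 1.66 in wild type and 0.16, 0.43 and 0.40 in null cells, with no overlap (exact permutation p = 0.1). With each mouse as a pair the null rise of 0.33 passed (adjusted p = 0.039) and the difference of the rises, -1.09, did too (SE 0.146, adjusted p = 0.046); without pairing its SE was 0.373 and its adjusted p 0.59.

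The Zeb2 arrays of the genotypes lay apart before peptide and mixed after it. Unstimulated null cells stood 1.06 above wild type (interval 0.49 to 1.64, adjusted p = 0.22), and with peptide the difference was -0.03 (interval -0.60 to 0.55, adjusted p = 0.98). The unstimulated difference ranked 31 of 18193 genes from the top. The 4 weaker probe sets of Zeb2 did not show it to that size: their unstimulated differences were 0.11 to 0.27, with group means between 3.06 and 5.13. They had wild-type changes of 0.24 to 1.06, of which 2 were called (1.06, adjusted p = 0.0014, and 0.47, adjusted p = 0.046), and smaller null changes of 0.12 to 0.49. The null change minus the wild-type change was negative in all 4, from -0.57 to -0.09, with none called.

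Prdm1, which encodes the repressor BLIMP1 of effector T cells and plasma cells, lay between 4.59 and 6.06 on the 12 arrays. Wild-type mice 1, 2 and 3 had 5.00, 4.59 and 5.10 without and 5.38, 5.21 and 5.37 with peptide, so the wild-type groups lay apart. Null mice 1, 2 and 3 had 5.70, 5.82 and 5.52 without and 5.32, 6.06 and 4.91 with peptide. The 3 unstimulated null arrays exceeded all 6 wild-type arrays, and the stimulated null arrays scattered on both sides of them. The unstimulated difference of 0.78 (interval 0.28 to 1.29) did not pass (adjusted p = 0.31), and it ranked 97 of 18193. The change with peptide was 0.42 in wild type (adjusted p = 0.22) and -0.25 in null cells (adjusted p = 0.54). Null mouse 2 was the only null mouse with a higher value after peptide; without it the null change was -0.50 (adjusted p = 0.080), and over the fits without 1 mouse it ran from -0.50 to -0.07. Within mice it was 0.37, 0.62 and 0.27 against -0.38, 0.24 and -0.61 (exact permutation p = 0.1), a difference of -0.67 (interval -1.38 to 0.04, adjusted p = 0.73; -0.92 to -0.49 without 1 mouse).

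Zeb2 and Prdm1 were the 2 genes of the 9 whose unstimulated null arrays all lay above the wild-type arrays, as did those of 7.39% of all probe sets. Myeloid cells express Zeb2 and plasma cells Prdm1, so the markers of other cells are given beside them. Without peptide the mean level of 7 B cell markers was 8.93 to 9.06 in wild-type and 9.41 to 10.04 in null mice; that of 5 plasma cell markers was 8.04 to 8.30 and 8.54 to 9.33. The mean level of 7 myeloid and dendritic markers was 6.79 to 6.98 and 6.90 to 7.32. Higher means in null cells were seen for 7 of 7 B cell, 4 of 5 plasma cell and 5 of 7 myeloid markers. Of all genes 47.9% had a lower mean there. Limma called 0 of these markers and 0.0377% of all probe sets. With peptide the B cell levels were 8.01 to 8.33 and 8.69 to 9.30, those of plasma cells 7.37 to 8.04 and 7.87 to 8.60, and those of myeloid cells 6.73 to 6.77 and 6.59 to 7.11. There limma called 2 of 7 B cell, 1 of 5 plasma cell and 0 of 7 myeloid markers higher in null cells. The plasma cell marker was Sdc1 (1.26, adjusted p = 0.011). Of all probe sets 0.799% were called higher. The part of these cells in the levels of Zeb2 and Prdm1 was not tested.

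**Figure D3:**
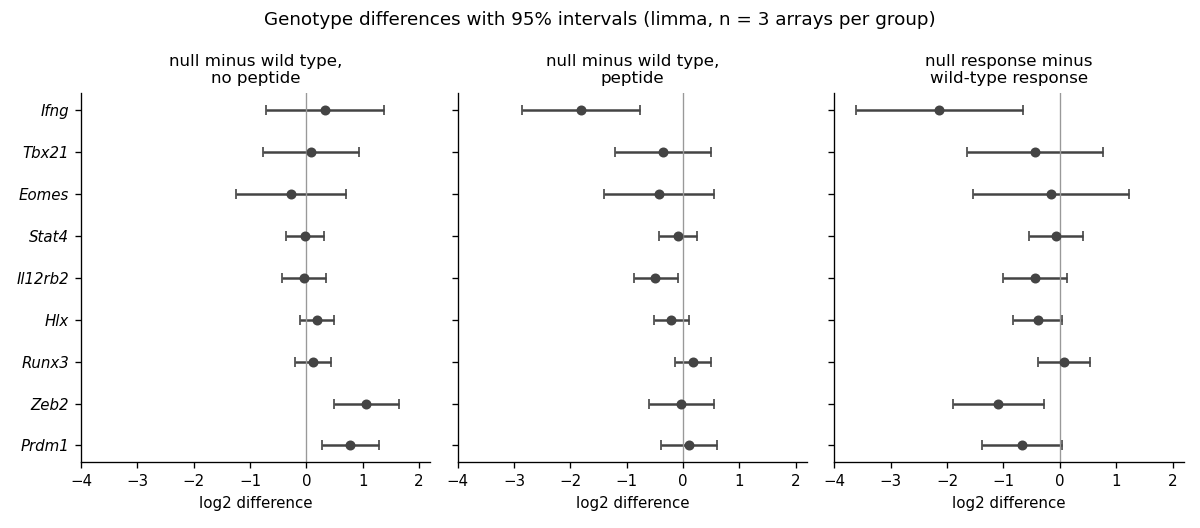
Log2 differences (horizontal axes) between PKD2-null and wild-type cells without peptide, with peptide, and between their responses to peptide, for the 9 genes. Points are limma estimates and bars 95% intervals (n = 3 arrays per group); Ifng lies lowest in the middle and right panels (-1.81 and -2.14), and Zeb2 highest in the left one (1.06).

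Of the IL-12 branch, Stat4 fell and no change of Il12rb2 was called. Stat4, the transducer of IL-12 signals, fell in all 6 mice, by 0.63 to 1.16. It went from 11.32, 11.26 and 11.00 to 10.17, 10.24 and 10.37 in wild-type mice 1, 2 and 3, and from 11.13, 11.32 and 11.07 to 10.03, 10.58 and 9.91 in the null mice. The stimulated arrays lay below the unstimulated ones in each genotype, and the genotypes overlapped in both conditions. The change was -0.93 (SE 0.156, adjusted p = 0.00044) in wild type and -1.0 (SE 0.156, adjusted p = 0.00033) in null cells, where the signal was 2-fold lower. Between genotypes the effects differed by -0.07 (interval -0.55 to 0.41, adjusted p = 0.97).

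Il12rb2, the chain that makes the IL-12 receptor able to signal, lay between 3.52 and 4.70 on the 12 arrays. All 4 group means, 3.93 to 4.42, lay below the array medians of 4.67 to 4.72. At so low a signal the lack of a call does not show a stable level. Its values were 4.17, 3.94 and 4.26 without and 4.09, 4.47 and 4.70 with peptide in wild-type mice 1, 2 and 3. In the null mice they were 4.17, 4.11 and 3.95 without and 3.52, 4.15 and 4.13 with peptide. The groups overlapped in every comparison. The change with peptide was 0.30 (interval -0.10 to 0.69, adjusted p = 0.28) in wild type and -0.14 (interval -0.54 to 0.25, adjusted p = 0.68) in null cells. With peptide null cells were at -0.49 relative to wild type (interval -0.88 to -0.09, adjusted p = 0.23). Over the fits without 1 mouse this ran from -0.65 (without wild-type mouse 1) to -0.28 (without null mouse 1), with no call.

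No change of Hlx or Runx3 was called in the probe set with the highest mean. Hlx, a homeobox factor that acts with T-bet in Th1 cells, lay between 4.51 and 5.34 on the 12 arrays, near the array medians of 4.67 to 4.72. Its change with peptide was 0.09 (interval -0.22 to 0.39) in wild type and -0.31 (interval -0.62 to 0.00, adjusted p = 0.15) in null cells, where it was negative in 3 of 3 mice. Runx3, needed for the CD8 lineage and for cytotoxic genes, lay between 8.96 and 9.68. Its change was -0.17 (interval -0.49 to 0.15) and -0.10 (interval -0.42 to 0.23), with adjusted p of 0.48 and 0.74. Its second probe set, at group means of 5.55 to 5.86, went the other way and was called up in wild type (0.32, adjusted p = 0.045), so the probe sets of Runx3 disagree. For Hlx the genotypes differed by 0.18 without and -0.21 with peptide, and for Runx3 by 0.11 and 0.18, with no call (adjusted p from 0.51 to 0.89).

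Most genes that interferon gamma induces rose with peptide in both genotypes. Of 12 such genes 9 rose and 1 fell in wild type, where 12.8% of all probe sets rose and 16.2% fell. In null cells 7 rose and 2 fell, against 11% and 13.8% of all probe sets. The medians were 2.04 and 1.24 against 0.01 and -0.02 for all genes. The chemokine gene Cxcl10 rose by 4.99 in wild type (adjusted p = 8e-06) and 3.86 in null cells (adjusted p = 1e-04). Iigp1, a GTPase that attacks vacuoles of parasites, rose by 3.89 (adjusted p = 5e-04) and 2.42 (adjusted p = 0.016), and its relative Irgm1 by 3.16 and 2.37. Cxcl9, a ligand of CXCR3 like Cxcl10, rose by 2.75 and 2.10. Psmb8, an immunoproteasome subunit, fell, with changes of -0.46 and -0.48, and Ciita, the master regulator of MHC class II, fell by 0.80 in null cells.

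For all 12 of these genes the change was smaller or more negative in null cells, as it was for 55.2% of all genes, and 0 differences were called (limma). The median difference of the changes was -0.71 against -0.02 for all genes. With peptide 10 of the 12 were lower in null cells, as were 56.5% of all genes, with a median of -0.92 against -0.03 for all genes and 0 called. Without null mouse 2 their median was -1.26 (-0.03 for all genes) and 9 were called down, as were 0.806% of all probe sets. That fit was chosen after the values were seen. The mouse it left out had the highest mean level of these genes among the stimulated null mice, so leaving it out lowers the null mean. The largest such difference with all mice was that of Iigp1 at -2.69 (SE 0.662, adjusted p = 0.080), whose null mean was also lower without peptide, at -1.22 (adjusted p = 0.64). The mean level of the 12 genes on the stimulated null arrays was 9.52, 10.45 and 8.94 in mice 1, 2 and 3. This is the order of Ifng on the same arrays (7.87, 9.53 and 7.04). Without peptide the null mice had the same order for the 12 genes (8.44, 8.74 and 8.00) and Ifng (4.71, 5.21 and 4.59). On the stimulated wild-type arrays the orders differed, as they did without peptide. There the 12 genes had 10.58, 10.49 and 10.59 with peptide, and Ifng 10.26, 9.60 and 10.02. A link between Ifng and these genes was not tested.

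**Figure D4:**
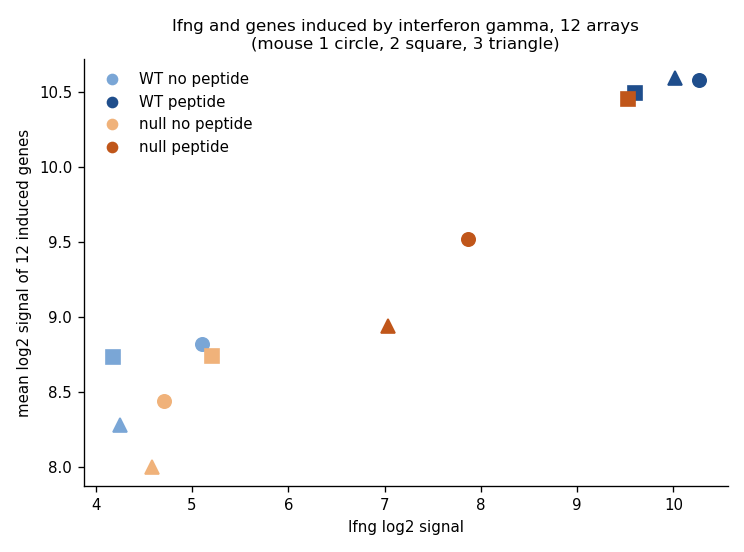
Ifng log2 signal (horizontal axis) and mean log2 signal of 12 genes induced by interferon gamma (vertical axis) on the 12 arrays; colours give the groups and symbols the mice. The 3 stimulated null arrays lie at 7.04, 7.87 and 9.53 for Ifng and at 8.94, 9.52 and 10.45 for the induced genes, with mouse 2 beside the wild-type arrays.

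Receptors and partners of the type 1 programme went both ways in both genotypes. Of 17 genes measured from a list of 18, 7 rose and 7 fell in wild type and 7 rose and 7 fell in null cells, with medians of 0.22 and 0.14 against 0.01 and -0.02 for all genes. Of all probe sets 12.8% rose and 16.2% fell in wild type, and 11% and 13.8% in null cells. Il12rb1, the other chain of the IL-12 receptor, rose by 2.12 in wild type and by 1.48 in null cells (adjusted p = 1.7e-06 and 5.3e-05), from a level of 4.11 and 4.21. The chains of the interferon gamma receptor fell, with changes of -1.70 and -1.78 for Ifngr1 and -1.84 and -1.34 for Ifngr2 (adjusted p at most 7.3e-06). Irf1, a transcription factor induced by interferon gamma, rose by 1.66 and 1.38. Of the 17 genes 1 differed between the genotypes with peptide, where 1.18% of all probe sets did: Nfatc2, an NFAT factor, was higher by 0.57 in null cells (SE 0.107, adjusted p = 0.030). Its change with peptide was -0.92 in wild type and -0.44 in null cells, a fall in both.

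Factors that restrain the type 1 programme or mark other fates also went both ways. Of 12 genes measured from a list of 14, 5 rose and 4 fell in wild type (12.8% and 16.2% of all probe sets) and 4 rose and 4 fell in null cells (11% and 13.8%). Their median changes were -0.06 and -0.20, against 0.01 and -0.02 for all genes. Socs1, a feedback inhibitor of cytokine signalling, rose by 2.63 and 2.05, and Id3, an inhibitor of E proteins, by 1.1 and 1.25. Lef1, a factor of naive T cells, changed by -2.28 and -1.90, and Foxo1, which keeps T cells quiescent, by -1.05 and -0.97. Bcl6, a repressor that opposes BLIMP1, rose by 0.41 in wild type (adjusted p = 0.040) and 1.04 in null cells (adjusted p = 9.1e-05); with each mouse as a pair its wild-type rise did not pass (adjusted p = 0.077). With peptide it was 0.95 higher in null cells (SE 0.138, adjusted p = 0.0098). Bach2, which holds back effector genes, was 0.43 higher there (SE 0.0931, adjusted p = 0.048), a call that was lost with each mouse as a pair (adjusted p = 0.051). B cells also express Bcl6 and Bach2; with peptide 7 of 7 B cell markers had higher means in null cells, with a median of 0.72, and Cd79b (1.19) and Fcrla (1.25) were called. The part of B cells in these differences was not tested. Without null mouse 2, 3 of the 12 genes were higher in stimulated null cells (1.75% of all probe sets) and 3 lower (0.806%). That fit was chosen after the values were seen. A genotype difference of the responses was called for 0 of the 12 genes (Bcl6 0.63, SE 0.195, adjusted p = 0.55).

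The genes most like 4 of the members over the 12 arrays were sought among genes whose group means spanned at least 1. For Ifng they were Fnip2, Nampt, Cdk5r1, Irgm1 and Cxcl10, with Pearson r from 0.986 to 0.991. For Tbx21 they were Hspa5, Sema7a, Atp2a2, Tfdp1 and Mir155hg (r from 0.993 to 0.994), and for Eomes Stx11, Alcam, Bhlhe40, Ppp1r16b and Gem (r from 0.911 to 0.945). For Il12rb2, which hardly varied at its low signal, the closest was Cyp2f2 at 0.793, followed by Hbegf, Fxyd3, Hspa1a and Foxa1 down to 0.751. Among the members themselves Ifng and Tbx21 were closest (r = 0.958), and Zeb2 had an r of 0.742 with Prdm1 and 0.745 with Ifng. These values describe 12 arrays that share a large change with peptide and, in pairs, a mouse.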

How the data were processed

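The members and the gene lists were chosen with earlier results of these data known. The deposited log2 signals of 45101 probe sets on 12 arrays were used as the authors deposited them; Affymetrix Expression Console 1.1 is named in the submitters' processing notes, and how arrays were normalized is not stated in the labels used. Array medians lay between 4.67 and 4.72, so the values were not normalized again, and 0 pairs of arrays were identical. After removal of 64 controls, group means were fitted with limma 3.58.1 (R 4.3.3) and adjusted over 45037 probe sets, two-sided. Symbols came from the platform annotation; 34945 probe sets had 1 symbol. Arrays of a mouse were paired through the animal numbers of the sample descriptions. Their residuals from group means correlated at 0.116 to 0.577 within a mouse and at most 0.129 with other mice of the genotype. For wild-type mouse 2 the values were close, at 0.116 within the mouse and up to 0.0831 with another. The paired fit used the mouse as a fixed block, or as a random block (correlation 0.202) between genotypes. Named were the 9 members, up to 4 called genes per list with the largest change, and the 5 genes most alike. Psmb8, Ciita, Klrd1, Nkg7 and genes called between the genotypes were added after their values were seen. The fit was tested on simulated data. Alternatives were the pairing, the mean over probe sets, quantile normalization, a filter on dim probe sets, only the groups compared, another variance model and leaving out each mouse.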

Additional observations from a re-analysis of the deposited data

How the results depend on the processing

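Of 526 single values under an alternative, 494 kept direction and side of the threshold, 8 gained a call, 0 lost one and 24 turned sign, all of these at most 0.38 in size with an adjusted p of at least 0.59. The number of the 9 genes called was 4 in wild-type stimulation (4 to 5 without 1 mouse, 5 with the replicate block), and in null stimulation 3 (3 to 4), or 5 with the replicate block. Between genotypes it was 0 without peptide and, with peptide, 0, or 1 (Ifng) without null mouse 2, and for the difference of the effects 0, or 1 with the replicate block. Leaving out 1 mouse gave 10397 to 13379 and 8117 to 10919 called probe sets for peptide in wild type and null cells. Between genotypes without peptide 17 probe sets were called, 44 with the replicate block, 32 after quantile normalization, 3 in the groups compared alone, 57 with trend and robust moderation and 3 to 64 without 1 mouse. With peptide 531 were called, 91 in the groups compared alone and 69 to 1150 without 1 mouse, the most without null mouse 2. For the difference of the effects 1 was called, 43 with the replicate block, 0 among brighter probe sets, 4 with trend and robust moderation and 0 to 11 without 1 mouse. The mean over probe sets turned Runx3 to 0.07 in wild type and to -0.10 for the difference of the effects, also per mouse. Without 1 mouse these ranges crossed 0: in wild-type stimulation Hlx -0.01 to 0.20; in null stimulation Il12rb2 -0.30 to 0.11; without peptide Stat4 -0.11 to 0.04, Tbx21 -0.38 to 0.40, Il12rb2 -0.14 to 0.02 and Eomes -0.75 to 0.12. With peptide they were Zeb2 -0.28 to 0.13, Prdm1 -0.20 to 0.37 and Stat4 -0.29 to 0.04, and for the difference of the effects Runx3 -0.05 to 0.15, Stat4 -0.20 to 0.08 and Eomes -0.33 to 0.02. Il12rb2 fell under the filter on dim probe sets, and the mean over probe sets gave no count of probe sets. List counts with the replicate block and without null mouse 2 were chosen after seeing the data; without that mouse 2 partners, not 1, differed between stimulated genotypes. The cause of these shifts was not tested.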
